A study of Mus musculus with 10 samples.

Results

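Left ventricular (LV) tissue of 10 wild-type mice was sequenced at 4 weeks of age, 5 mice after neonatal ascending aorta constriction (nAAC) and 5 after a sham operation, with 1 library per mouse. Described here are the transcripts of the mitochondrial genome, chosen as every row of the gene tables that lies on the mitochondrial chromosome. They are 37 of 55401 genes: 13 mRNAs, 2 rRNAs and 22 tRNAs. nAAC narrows the ascending aorta surgically in the newborn, so that the LV grows against a raised pressure. The study's methods state that mice of both sexes were assigned at random, and the labels give no sex. They add that sex was determined at evaluation, also at 4 weeks, and listed in a supplementary table, which was not read here. The tissue was not divided into cell types, so fewer cardiomyocytes and less mitochondrial RNA per cardiomyocyte cannot be told apart.

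The mitochondrial genome is a small circle that is transcribed from both strands into long precursor RNAs. The tRNAs lie between most of the mRNAs and rRNAs, and their excision releases the other transcripts. The mRNAs encode core subunits of respiratory complexes I, III, IV and V, the rRNAs form the RNA core of the mitochondrial ribosome, and the tRNAs serve only that ribosome. All other proteins of the organelle, including its RNA polymerase and the enzymes that cut and charge its tRNAs, come from nuclear genes. Cardiac muscle is among the tissues richest in mitochondria.

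The sequences of the 7 tRNAs that were lower in nAAC in the test across all genes are shown here because 4 of them are neighbors in one cluster of 5 tRNA genes between mt-Nd2 and mt-Co1. The first 2 are mt-Ti (isoleucine, MT:3706-3774, plus strand) and mt-Tw (tryptophan, MT:4950-5016, plus strand). The next 3 lie on the minus strand of that cluster, namely mt-Ta (alanine, MT:5018-5086), mt-Tn (asparagine, MT:5089-5159) and mt-Tc (cysteine, MT:5192-5257). The last 2 are mt-Tg (glycine, MT:9391-9458, plus strand) and mt-Te (glutamate, MT:14071-14139, minus strand). Each is given 5′ to 3′ on its own strand from the GENCODE M21 transcripts of GRCm38, with the anticodon in capitals.
mt-Ti: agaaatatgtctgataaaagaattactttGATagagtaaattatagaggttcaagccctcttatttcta
mt-Tw: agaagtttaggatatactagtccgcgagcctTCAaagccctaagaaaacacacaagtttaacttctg
mt-Ta: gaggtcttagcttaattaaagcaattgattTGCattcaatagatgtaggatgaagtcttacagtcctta
mt-Tn: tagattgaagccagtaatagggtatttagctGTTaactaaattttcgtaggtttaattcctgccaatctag
mt-Tc: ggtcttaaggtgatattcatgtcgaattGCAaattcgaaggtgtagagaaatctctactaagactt
mt-Tg: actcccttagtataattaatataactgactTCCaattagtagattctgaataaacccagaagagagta
mt-Te: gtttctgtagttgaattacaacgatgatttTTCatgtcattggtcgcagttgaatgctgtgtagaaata

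A second set of sequences shows why 7 of the mRNAs share their reads with a nuclear locus. Chromosome 1 of the mouse carries an insert of mitochondrial DNA, annotated as 7 unprocessed pseudogenes on the minus strand between 24611535 and 24616197 (GRCm38). Over their full length of 4149 bases, these rows differed from mt-Nd4, mt-Nd4l, mt-Nd3, mt-Co3, mt-Atp6, mt-Co2 and mt-Co1 at 7 bases, and 5 of the 7 rows held no difference. All differences lie at the start of 2 rows, whose first 60 bases are printed beside those of the mitochondrial gene, with each differing base in capitals. The stretches are MT:9459-9518 (plus strand) against 1:24613060-24613119 (minus strand) for mt-Nd3 and Gm28438, and MT:6381-6440 (plus strand) against 1:24616138-24616197 (minus strand) for mt-Co1 and Gm29216. Beyond these bases the copies are identical.
mt-Nd3: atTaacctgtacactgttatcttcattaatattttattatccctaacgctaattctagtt
Gm28438: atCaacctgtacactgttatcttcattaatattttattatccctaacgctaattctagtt
mt-Co1: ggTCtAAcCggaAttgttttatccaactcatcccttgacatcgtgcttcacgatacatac
Gm29216: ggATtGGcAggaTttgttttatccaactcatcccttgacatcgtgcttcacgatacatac

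Expression is given as FPKM, which counts fragments per length of transcript and per library total, or as TPM, the same values rescaled to sum to 1000000 in each library. Read counts were not used here, and 25 of the 37 transcripts had a mean read coverage above 1000 per base in every mouse. The ventricular genes Myl2 and Myl3 averaged 3668 and 3475 FPKM in sham LV. The summed FPKM of 3 ventricular markers was 4629 to 9232 in nAAC and 4934 to 11928 in sham. Nppa, the atrial natriuretic peptide that loaded ventricles re-express, averaged 8217 ± 2127 FPKM (SD, n = 5) in nAAC and 121 ± 32.1 in sham. All 4 atrial markers, Nppa among them, had a positive log2 FC, with a median of 1.11. Of these 4, only Nppa was higher at an adjusted p below 0.05 (limma), beside 27.1% of all genes tested. Whether the samples held atrial tissue was not tested. The summed FPKM of 12 cardiomyocyte markers overlapped between the groups, at 18308 to 28113 in nAAC and 20409 to 35732 in sham, while 3 of them were lower (Pln, Atp2a2 and Tnni3) and 3 higher (Mybpc3, Actn2 and Actc1) at an adjusted p below 0.05 (limma), beside 4.6% and 27.1% of all genes tested. Of 7 fibroblast markers, 6 were higher in nAAC by that rule and none was lower, and their summed FPKM was 534 to 954 against 358 to 389. Of 5 mural markers 3 were higher, of 6 endothelial markers 2, and none was lower. Among the mural markers 2, and among the endothelial markers 1, had a negative log2 FC. The summed FPKM overlapped for both types. It was 170 to 265 in nAAC and 137 to 239 in sham for mural markers. For endothelial markers it was 186 to 301 in nAAC and 161 to 238 in sham. The part of these cell types in the mitochondrial values was not tested. Ddx3y, a Y-linked gene, was detected in 1 nAAC mouse (nAAC 2) and in 3 sham mice (sham 1 to 3), so the sexes were not balanced between the groups. Xist, the RNA of the inactive X chromosome, was at 3.70 FPKM in sham 4 and at 10.6 to 17.9 in the other mice without Ddx3y.

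Among the 36 mitochondrial transcripts that averaged 1 FPKM or more, 9 were lower in nAAC and none was higher at an adjusted p below 0.05 (limma on log2(FPKM + 1), adjusted over 11867 genes). They were both rRNAs and 7 of 21 tested tRNAs, and the mRNAs gave no call among 13. Over all genes tested, 4.6% were lower and 27.1% higher by the same rule. The log2 FC, written as nAAC minus sham throughout, was negative for 35 of the 36 transcripts, with a median of -0.43, while the median of all genes tested was 0.22. In this fit no transcript of the 36 passed the fold threshold of the study, an absolute log2 FC above 1. After median-ratio scaling, 9 had a log2 FC below -1 with an adjusted p below 0.05 (limma). They were both rRNAs, mt-Ti, mt-Tw, mt-Ta, mt-Tn, mt-Tc, mt-Ty and mt-Tg, with mt-Ti the lowest at -1.25. Without sham 4 there were 6. By this rule, 106 of all 11867 genes passed in the reported fit, 207 after median-ratio scaling and 118 without sham 4. With TPM the median over the 36 was -0.26 and 31 values were negative, and with Xist as a covariate the median was -0.22 and 30 were negative. Without sham 4 the number of lower transcripts was 19, with a background of 5.23%, and without sham 5 it was 15, with a background of 4.27%. With Xist as a covariate, for the sexes, it was 2, namely mt-Rnr1 and mt-Tw, with a background of 3.29%.

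**Figure D1:**
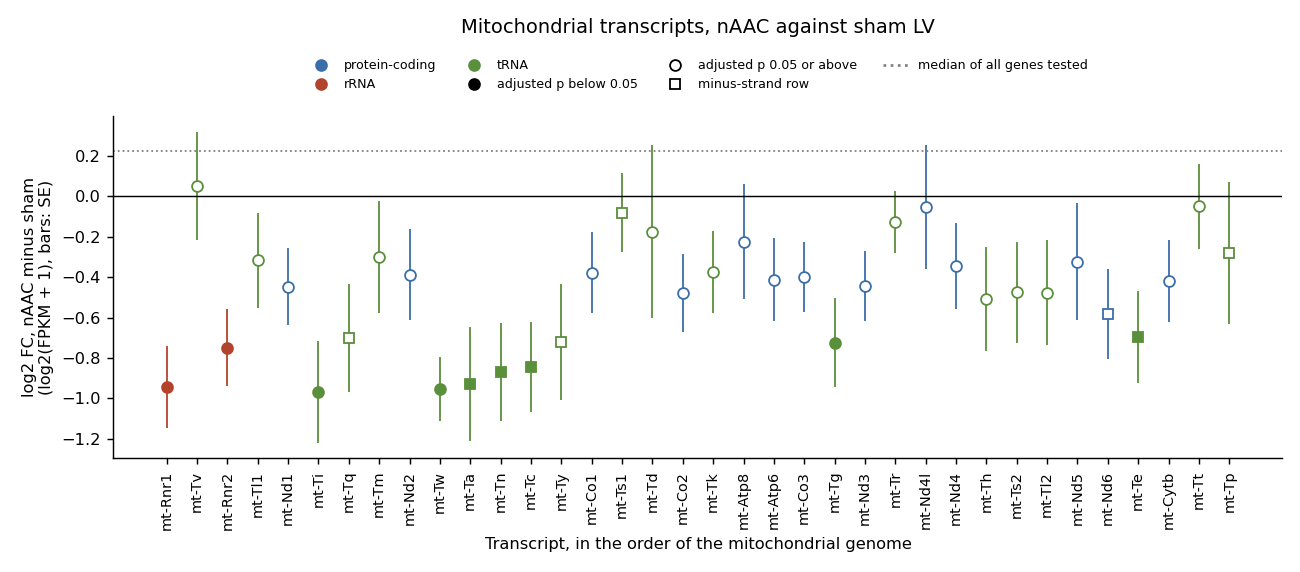
Log2 FC (nAAC minus sham, on the log2(FPKM + 1) scale, with SE) of the 36 tested mitochondrial transcripts in genome order, colored by class, with filled symbols for an adjusted p below 0.05 and squares for minus-strand rows. The 2 rRNAs and the tRNAs from mt-Tw to mt-Tc lie between -0.75 and -0.95, mt-Nd4l and mt-Tv lie near 0, and all points are below the dotted line at 0.22, the median of all genes tested.

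The rRNAs were the class with the lowest median log2 FC, -0.85. Over all mice, mt-Rnr2 and mt-Rnr1 averaged 2230 and 1657 FPKM, below every mRNA row, of which mt-Nd3 was the lowest at 5116. How RNA was selected for the libraries is not given in the sources used here, and its part in the rRNA values was not tested. mt-Rnr1, the rRNA of the small ribosomal subunit, had an FPKM of 728, 1172, 1517, 1072 and 1239.9 in nAAC mice 1 to 5 and 1684, 2555, 2389.6, 2018 and 2196 in sham mice 1 to 5. Every nAAC mouse was below every sham mouse. The log2 FC was -0.94 ± 0.20 (SE; adjusted p = 0.0037 by limma), and the two-sided exact permutation test of 5 against 5 values gave p = 0.0079, the smallest it can give. For all genes tested, 3.46% had every nAAC value below every sham value.

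mt-Rnr2, the rRNA of the large subunit, had an FPKM of 1268, 1521, 2144, 1658 and 1722 in nAAC mice 1 to 5 and 2589, 3425, 3313, 2127 and 2533 in sham mice 1 to 5. The groups overlapped only through nAAC 3, which lay just above sham 4. The log2 FC was -0.75 ± 0.19 (SE; adjusted p = 0.0099 by limma). Both rRNA calls stood without any single mouse. The rows annotated as rRNA genes outside the mitochondrial genome had a summed FPKM of 2957 ± 918 in nAAC and 2404 ± 1222 in sham (SD, n = 5). Their share of TPM was 0.482 ± 0.138% in nAAC and 0.356 ± 0.190% in sham (SD, n = 5). The groups overlapped on both scales.

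Of the tRNAs, 14 lie on the plus strand and 8 on the minus strand, and the levels per length differed widely. Single mice ranged from 0.479 to 1843 FPKM over the plus-strand rows and from 95.0 to 10004 over the minus-strand rows. The rows are 59 to 75 bases long, and reads over a tRNA can come from uncut precursors as well as from the tRNA itself. Whether the counting used strand is not given in the sources used here, so the minus-strand tRNAs and mt-Nd6 cannot be told apart from plus-strand RNA over the same bases. mt-Tf, the tRNA for phenylalanine, had a mean of 0.994 FPKM and was not tested.

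mt-Ti had the lowest log2 FC of all members. Its FPKM was 387, 813, 846, 644 and 784 in nAAC mice 1 to 5 and 1398, 1843, 1569, 1067 and 901 in sham mice 1 to 5. All nAAC values were below all sham values, with nAAC 1 the lowest. The log2 FC was -0.97 ± 0.25 (SE; adjusted p = 0.0108 by limma; two-sided exact permutation p = 0.0079). mt-Ti shares 2 bases with mt-Nd1 and 3 with mt-Tq on the other strand. mt-Tq (glutamine) and mt-Tm (methionine), its neighbors, did not pass, with log2 FC of -0.70 (adjusted p = 0.0625, limma) and -0.30 (adjusted p = 0.422, limma).

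The cluster of mt-Tw, mt-Ta, mt-Tn, mt-Tc and mt-Ty holds the origin at which light-strand replication starts. In it, 4 of 5 tRNAs were lower, and the median log2 FC was -0.87. This grouping by position was made after the values were seen. mt-Tw had the lowest adjusted p among the mitochondrial transcripts, with an FPKM of 173, 184, 189, 199 and 229 in nAAC mice 1 to 5 and 423, 463, 383, 271 and 373 in sham mice 1 to 5. The nAAC mice lay in a narrow range below all sham mice. Its log2 FC was -0.95 ± 0.16 (SE; adjusted p = 0.000668 by limma; two-sided exact permutation p = 0.0079). mt-Tw shares 2 bases with the end of mt-Nd2, whose own log2 FC was -0.39 (adjusted p = 0.202, limma).

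mt-Ta had an FPKM of 398, 573, 687, 489.7 and 522 in nAAC mice 1 to 5 and 1046, 1584, 1445, 497 and 845 in sham mice 1 to 5. Sham 4 fell among the nAAC mice and the other sham mice were above all of them. Its log2 FC was -0.93 ± 0.28 (SE; adjusted p = 0.0242 by limma). For mt-Tn, the FPKM was 1196, 1638, 2251, 1623 and 1789.6 in nAAC mice 1 to 5 and 2936, 4173, 4122, 1874 and 2762 in sham mice 1 to 5. Here too the overlap came from sham 4, with nAAC 3 above it. The log2 FC of mt-Tn was -0.87 ± 0.24 (SE; adjusted p = 0.0156 by limma).

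mt-Tc had an FPKM of 1656, 1836, 2648, 1988 and 2216 in nAAC mice 1 to 5 and 3828, 4734, 4732, 2282 and 3380.3 in sham mice 1 to 5. nAAC 3 again passed sham 4, and no other pair of mice overlapped. Its log2 FC was -0.84 ± 0.22 (SE; adjusted p = 0.0116 by limma). mt-Ty (tyrosine), the other tRNA of the cluster, had a log2 FC of -0.72 ± 0.29 (SE; adjusted p = 0.0736 by limma), with sham 4 at 1118 FPKM below every nAAC mouse and the other sham mice at 2381 or more, above every one.

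mt-Tg and mt-Te were the remaining calls. mt-Tg had an FPKM of 47.9, 113, 93.4, 82.1 and 70.2 in nAAC mice 1 to 5 and 98.7, 180.1, 129, 128 and 127 in sham mice 1 to 5. Only nAAC 2 reached into the sham range. Its log2 FC was -0.73 ± 0.22 (SE; adjusted p = 0.0239 by limma). mt-Te, the most abundant tRNA row, had an FPKM of 4378, 5448, 4225, 4015 and 4526 in nAAC mice 1 to 5 and 8603, 10004, 9063, 4611 and 5736 in sham mice 1 to 5. nAAC 2 was above sham 4, and the other nAAC mice were below all sham mice. The log2 FC of mt-Te was -0.70 ± 0.23 (SE; adjusted p = 0.0330 by limma). Of the 9 calls, 6 stood without any single mouse. mt-Ta, mt-Te and mt-Tg each lost theirs in some of these 10 fits, with adjusted p (limma) of up to 0.0638, 0.0832 and 0.0580.

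**Figure D2:**
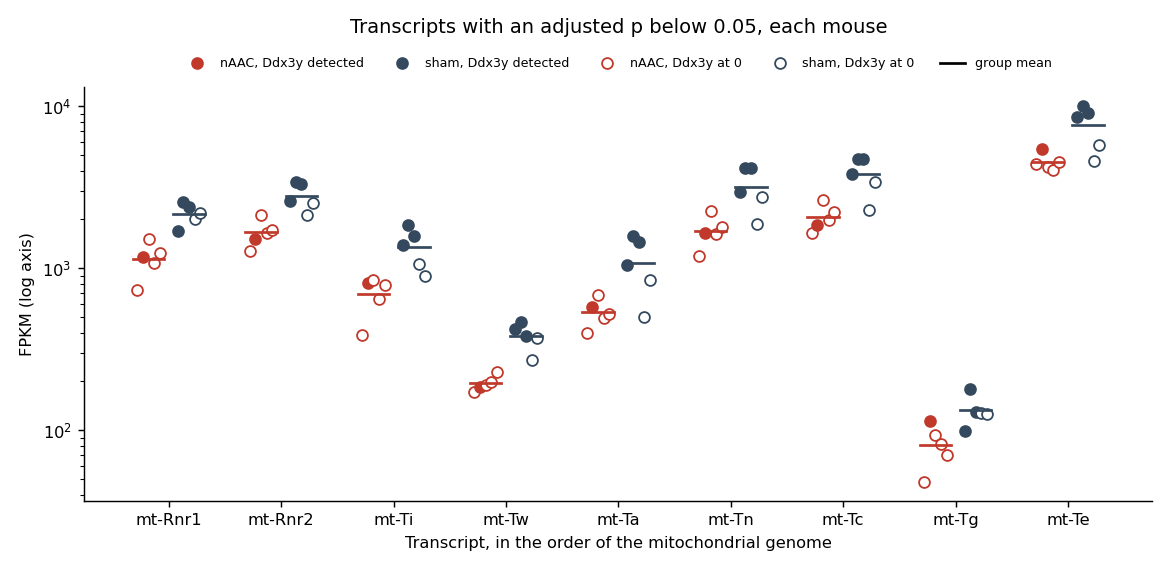
FPKM (log axis) of the 9 transcripts with an adjusted p below 0.05, each point 1 mouse, with filled points where Ddx3y was detected and lines at the group means. Sham 1 to 3, filled, are the highest mice for most transcripts, and only mt-Rnr1, mt-Ti and mt-Tw have no overlap between nAAC and sham.

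The other 14 tested tRNAs did not pass. Their log2 FC ran from -0.72 for mt-Ty to 0.05 for mt-Tv (valine), the one member with a positive value. mt-Ts1 (serine), the second most abundant tRNA row, had an FPKM of 4118, 5313, 4236, 4019 and 4301 in nAAC mice 1 to 5 and 3549, 4255, 4299.6, 7031 and 4624 in sham mice 1 to 5. Sham 4 was the highest mouse for it. The 3 tRNAs of the cluster after mt-Nd4, mt-Th, mt-Ts2 and mt-Tl2 (histidine, serine and leucine), had log2 FC between -0.48 and -0.51. mt-Tk, mt-Tt, mt-Tv and mt-Td had means of 4.77 to 15.4 FPKM, far below their neighbors.

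The mRNAs held the highest ranks among the members, although mt-Te lay above mt-Nd3. Of the 20 gene rows with the highest mean FPKM, 14 were mitochondrial, mt-Te among them, and the other 6 were rows of the insert. Their log2 FC were all negative, from -0.58 for mt-Nd6 to -0.05 for mt-Nd4l, with a median of -0.40. No mRNA passed the adjusted threshold, and 5 of 13 had an unadjusted p below 0.05 in limma, beside 43.4% of all genes tested. After median-ratio scaling, which brings the median log2 FC of all genes to about 0, 5 mRNAs passed (mt-Nd1, mt-Co2, mt-Co3, mt-Nd3 and mt-Nd6), with 12.1% of all genes lower by that rule. Without sham 4, 7 passed, beside 5.23% of all genes lower, and without sham 5, 3 passed, beside 4.27%.

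For complex IV, cytochrome c oxidase, mt-Co1 encodes the catalytic subunit and was the highest row of the tables. Its FPKM was 50611, 47942, 44515, 39261 and 47985 in nAAC mice 1 to 5 and 62534, 71175, 70216, 47134 and 51336 in sham mice 1 to 5. The sham values spread over a wide range, and nAAC 1, 2 and 5 exceeded sham 4. The log2 FC was -0.38 ± 0.20 (SE; adjusted p = 0.166 by limma). mt-Co2, which carries the copper center that takes electrons from cytochrome c, had a log2 FC of -0.48 (adjusted p = 0.0763, limma), and mt-Co3 one of -0.40 (adjusted p = 0.0965, limma). The mean FPKM of these 3 mRNAs was 22635 to 28649 in the nAAC mice and 28999.7 to 41275 in the sham mice, without overlap. The gap was narrow, and each of the 3 overlapped on its own. On the TPM scale their mean overlapped between the groups. No test was made on this mean.

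Of the 7 complex I subunits, mt-Nd6 is the only mRNA of the minus strand. Its FPKM was 15471, 10982, 9730.2, 8731 and 10026 in nAAC mice 1 to 5 and 19118, 19493, 18983, 12501 and 12340.5 in sham mice 1 to 5. nAAC 1 stood above sham 4 and sham 5, and the other nAAC mice were below all sham mice. The log2 FC was -0.58 ± 0.22 (SE; adjusted p = 0.0626 by limma; two-sided exact permutation p = 0.0397). mt-Nd4l, a small membrane subunit, had an FPKM of 10553, 8464, 7614, 7390.1 and 8736 in nAAC mice 1 to 5 and 11843, 12211, 11712, 3608 and 8628 in sham mice 1 to 5. Sham 4 was far below all other mice, and the log2 FC was -0.05 ± 0.31 (SE; adjusted p = 0.910 by limma).

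mt-Nd5, at the end of the proton-pumping arm, showed the same low mouse, with an FPKM of 12099.7, 9388, 8634, 8226 and 9783 in nAAC mice 1 to 5 and 15474, 15661, 15978, 5355 and 11658 in sham mice 1 to 5. Its log2 FC was -0.32 ± 0.29 (SE; adjusted p = 0.410 by limma). The others, mt-Nd1, mt-Nd2, mt-Nd3 and mt-Nd4, had log2 FC of -0.45, -0.39, -0.44 and -0.34 with overlapping groups.

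mt-Cytb, the cytochrome b subunit of complex III, had an FPKM of 19138, 24117, 21113, 18674 and 21948 in nAAC mice 1 to 5 and 28729, 35571, 33462, 21098 and 23734 in sham mice 1 to 5. nAAC 2, 3 and 5 reached the level of sham 4. Its log2 FC was -0.42 ± 0.20 (SE; adjusted p = 0.129 by limma). Of the complex V subunits, mt-Atp6 forms part of the proton channel and had a log2 FC of -0.41 (adjusted p = 0.141, limma). mt-Atp8, whose gene overlaps mt-Atp6 by 43 bases, had a log2 FC of -0.22 (adjusted p = 0.566, limma), with nAAC 1 at 10251 FPKM close to sham 1 to 3 at 9787 to 11050.

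By class, the summed FPKM of the 22 tRNAs was 18173 ± 1894 in nAAC and 28335 ± 6098 in sham (SD, n = 5), and every nAAC mouse (15662 to 20159) was below every sham mouse (21307 to 35532). The summed FPKM of the 2 rRNAs was 2808 ± 597 and 4966 ± 834, again without overlap (1997 to 3660 against 4146 to 5980). The summed FPKM of the 13 mRNAs was 199507 ± 20873 and 266349 ± 52521, with nAAC 1 and nAAC 2 above sham 4 and sham 5. The ratio of the group means was 0.641 for tRNA, 0.566 for rRNA and 0.749 for mRNA. The separation of the tRNA and rRNA sums held for FPKM but not for the share of TPM. There the groups overlapped, at 2.60% to 3.22% in nAAC and 3.08% to 4.88% in sham for tRNA. For rRNA the shares were 0.331% to 0.599% and 0.598% to 0.822%. No test was made on class sums.

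As a share of TPM, all mitochondrial transcripts made up 36.1 ± 2.60% in nAAC and 43.4 ± 7.05% in sham (SD, n = 5). Single mice were at 39.9%, 36.1%, 34.8%, 32.8% and 36.9% in nAAC 1 to 5 and at 46.5%, 49.8%, 48.7%, 33.7% and 38.3% in sham 1 to 5. Sham 1 to 3 were above all nAAC mice and sham 4 and 5 were among them. Within the mitochondrial TPM, tRNA took 8.29 ± 1.06% in nAAC and 9.44 ± 0.368% in sham, and rRNA 1.29 ± 0.334% and 1.68 ± 0.214%, with overlap in both.

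**Figure D3:**
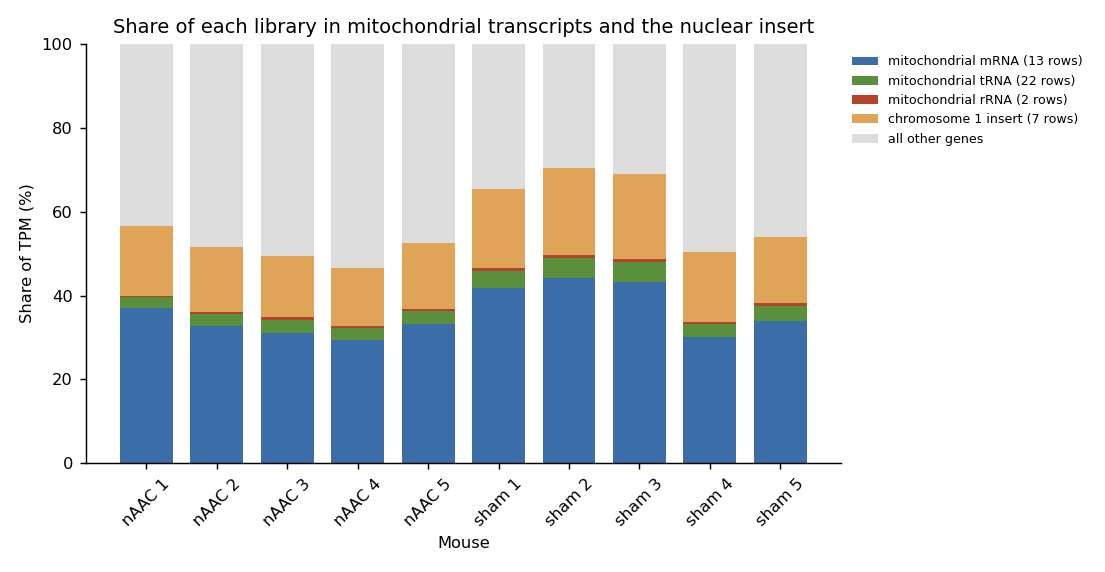
Share of TPM (%) of each mouse taken by mitochondrial mRNA, tRNA and rRNA, by the chromosome 1 insert and by all other genes. Sham 1 to 3 reach 65.3% to 70.4% for mitochondrial and insert rows together, and the other 7 mice lie between 46.5% and 56.5%.

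The split of the mice followed the detection of Ddx3y within sham. The mitochondrial share of TPM was 46.5% to 49.8% in the 3 sham mice with Ddx3y, and 33.7% and 38.3% in the 2 without. In nAAC it was 36.1% in the 1 mouse with Ddx3y and 32.8% to 39.9% in the 4 without. Between the mice without Ddx3y (4 nAAC, 2 sham), the share differed by 0.0964 percentage points, nAAC higher, against -7.30 over all mice. In the fit on these 6 mice, chosen after seeing the data, mt-Rnr1, mt-Tw and mt-Tg were lower at an adjusted p below 0.05 (limma), with a background of 4.63%, and the median log2 FC was -0.71 for the rRNAs, -0.33 for the tRNAs and -0.13 for the mRNAs. mt-Rnr1 was at 2018 and 2196 FPKM in the 2 sham mice without Ddx3y and at 728 to 1517 in the 4 nAAC mice without it. With detection of Ddx3y as a covariate, 6 transcripts were lower: both rRNAs, mt-Ti, mt-Tw, mt-Tn and mt-Tc, with a background of 4.49%. With 1 nAAC mouse with Ddx3y, a difference of the operation's effect between the sexes could not be tested.

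To compare the transcripts with each other apart from the scaling of the libraries, each was expressed as a percentage of the summed mitochondrial mRNA FPKM. None of the 13 mRNAs had shares without overlap between the groups. On this scale 0.733% of all genes tested were lower in every nAAC mouse than in every sham mouse, and 24.7% were higher. mt-Co1 took 23.1 ± 0.587% of the pool in nAAC and 22.8 ± 0.713% in sham, and mt-Cytb 10.6 ± 1.12% and 10.7 ± 0.462% (SD, n = 5). The two-sided exact permutation tests of the 13 shares gave no p below 0.05, and the lowest was 0.0635 for mt-Nd4l, at 4.28 ± 0.311% in nAAC and 3.52 ± 1.01% in sham.

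Sham 4 had another make-up than the remaining mice. Its mt-Nd4l took 1.73% of the pool, against 3.80% to 4.74% in the other 9 mice. mt-Nd5 took 2.57% in sham 4, against 4.38% to 5.52%, and mt-Co3 took 11.6%, against 7.63% to 8.98%.

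On the same scale, mt-Tw was the one member whose groups did not overlap, at 0.0989 ± 0.0171% of the mRNA sum in nAAC and 0.145 ± 0.0195% in sham (SD, n = 5; two-sided exact permutation p = 0.0079). mt-Ti was at 0.354 ± 0.105% and 0.503 ± 0.0549% (exact permutation p = 0.0159), and mt-Te at 2.27 ± 0.211% and 2.80 ± 0.371% (exact permutation p = 0.0476). mt-Rnr1 was at 0.584 ± 0.172% and 0.834 ± 0.169% (exact permutation p = 0.0794), and mt-Rnr2 at 0.849 ± 0.221% and 1.05 ± 0.0942% (exact permutation p = 0.103). These p-values are not adjusted for the 37 transcripts compared.

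**Figure D4:**
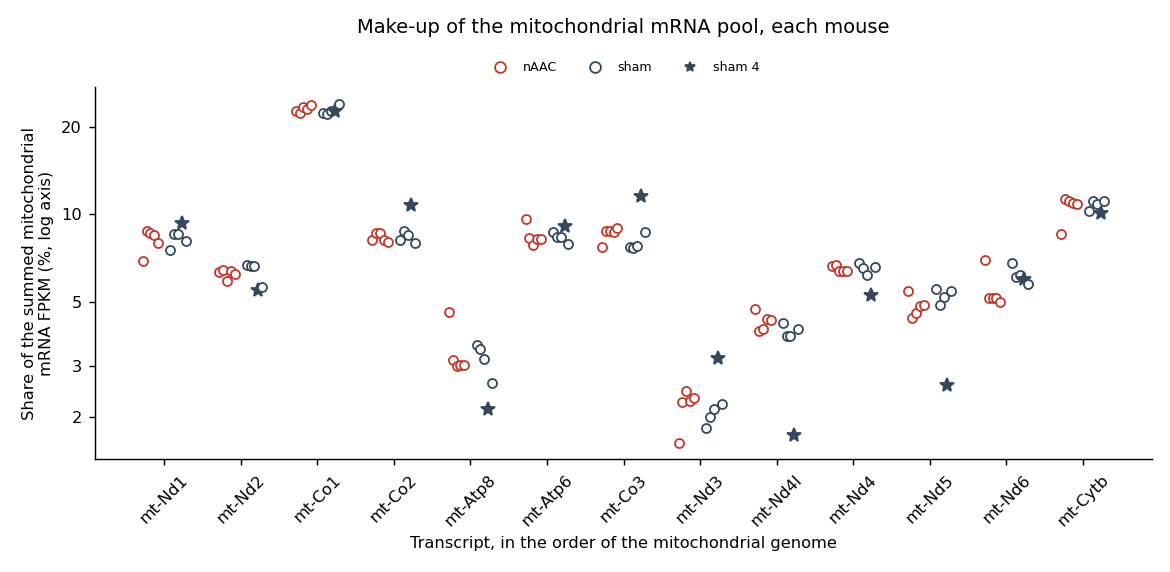
Share (%, log axis) of each of the 13 mRNAs in the summed mitochondrial mRNA FPKM, each point 1 mouse, with sham 4 as a star. The groups overlap for every mRNA, and sham 4 is the lowest mouse for mt-Nd4l (1.73%) and mt-Nd5 (2.57%) and the highest for mt-Co3 (11.6%).

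The order of the mRNA levels depended on the insert. In the deposited values, mt-Co1 had a mean of 53271 FPKM, followed by mt-Cytb at 24758 and by mt-Co2, mt-Co3, mt-Atp6 and mt-Nd1 between 19256 and 19937, whose ranges over the mice overlap. mt-Co1 was the highest mRNA in every mouse. mt-Nd3 was the lowest mRNA at 5116. Of the 7 insert rows, 5 had nearly the FPKM of their counterparts, as Gm10222, Gm28438, Gm28437, Gm10925 and Gm28661 averaged 96.5% to 98.1% of mt-Nd4l, mt-Nd3, mt-Co3, mt-Atp6 and mt-Co2. Gm28439 and Gm29216, which cover the start of mt-Nd4 and the end of mt-Co1, averaged 55.9% and 55.8% of the value of the whole gene. With the insert added to its counterparts by length, mt-Co2, mt-Atp6 and mt-Co3 rose to between 38962 and 39229 FPKM, and passed mt-Cytb.

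The insert rows took 15.2 ± 1.12% of TPM in nAAC and 18.4 ± 2.24% in sham (SD, n = 5), and insert and mitochondrial rows together 51.3 ± 3.71% and 61.8 ± 9.14%. Reads of identical sequence cannot be assigned to one locus, so insert and mitochondrial transcripts cannot be told apart in these 7 pairs. mt-Nd1, mt-Nd2, mt-Nd5, mt-Nd6, mt-Cytb, mt-Atp8, the rRNAs and the tRNAs have no row in the insert. The stretches of chromosome 1 between the insert rows were not compared with mitochondrial sequence. mt-Ts1, mt-Td, mt-Tk, mt-Atp8, mt-Tg and mt-Tr lie between mitochondrial genes that have insert rows. Whether they too share reads with the insert was not tested. Of the 7 insert rows, Gm29216 was lower in nAAC, with a log2 FC of -0.57 ± 0.19 (SE; adjusted p = 0.0362 by limma) and no overlap (20135 to 26485 FPKM against 26892 to 40640). The remaining 6 had log2 FC of -0.07 to -0.47.

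**Figure D5:**
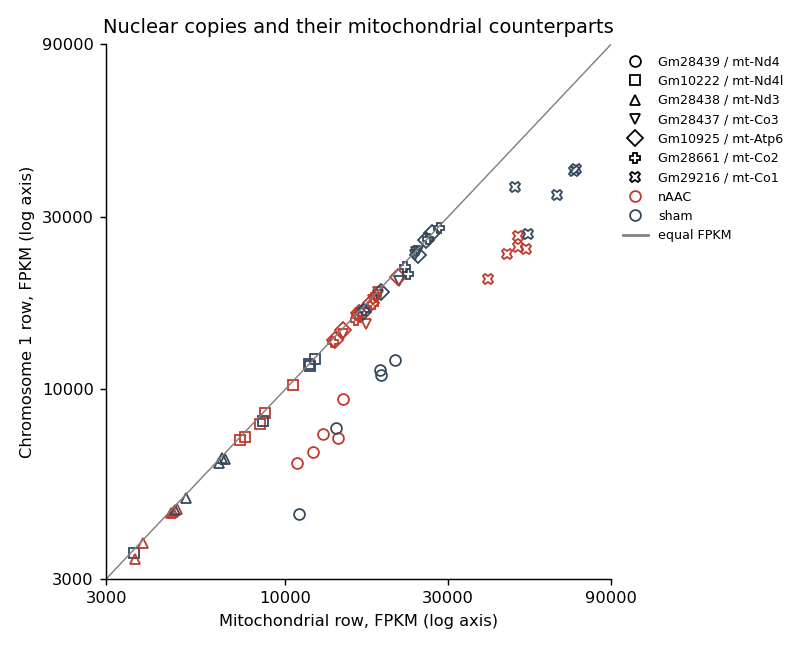
FPKM of the 7 chromosome 1 rows against that of their mitochondrial counterparts (both log axes), each point 1 mouse. For 5 pairs the points follow the line of equal FPKM, at 96.5% to 98.1% on average, and for the mt-Nd4 and mt-Co1 pairs, where the insert covers part of the gene, they lie below it.

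The nuclear genes that work with these transcripts were read from the same fit. Of 78 tested nuclear subunits of complexes I to V, 7 were lower and 1 was higher at an adjusted p below 0.05 (limma), with a median log2 FC of -0.24 and the background of 4.6% lower and 27.1% higher given above. The lower ones included Ndufs1, the iron-sulfur subunit of complex I (148 ± 11.7 FPKM in nAAC, 211 ± 15.96 in sham, SD, n = 5; log2 FC -0.51, adjusted p = 0.0061, limma), and Sdha, the flavoprotein of complex II (210.1 ± 32.9 against 309.9 ± 46.8; log2 FC -0.56, adjusted p = 0.0160, limma). Atp5c1, the central stalk of complex V, had a log2 FC of -0.56 (adjusted p = 0.0146, limma), Uqcrc2 of complex III one of -0.35 (adjusted p = 0.0396, limma), and Cox6c of complex IV one of -0.54 (adjusted p = 0.0397, limma). Ndufs4 and Ndufv2 of complex I had log2 FC of -0.53 (adjusted p = 0.0244, limma) and -0.54 (adjusted p = 0.0256, limma). Cox8a of complex IV was the one higher subunit, with a log2 FC of 0.73 (adjusted p = 0.0266, limma). After median-ratio scaling, 35 of the subunits were lower and none was higher, beside 12.1% and 13.2% of all genes, and with TPM 1 was lower and 2 were higher, beside 2.9% and 41.9%. Leaving out nAAC 1, nAAC 3 or nAAC 5 left 3 lower, and leaving out nAAC 4 or sham 3 left 4. Without sham 4 the higher ones numbered 3, beside 33.1% of all genes higher. The share of all genes lower was 3.59% to 4.27% in the first 5 of these fits. Among the mice without Ddx3y, where sham 4 and sham 5 were the only sham mice, more subunits were lower than in the reported fit. Their count is given with the dependence on processing below, and 4.63% of all genes were lower there.

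Of 45 genes of mitochondrial transcription, RNA processing and RNA stability, 2 were lower and 4 higher, beside 4.6% and 27.1% of all genes tested, with a median log2 FC of -0.02. These counts, with those of the synthetases and the other proteins below, depend on sham 4, without which the higher genes of the 3 lists rose from 5 to 12, beside 33.1% of all genes. Polrmt, the mitochondrial RNA polymerase, averaged 5.16 ± 0.354 FPKM in nAAC and 4.96 ± 0.890 in sham (SD, n = 5; log2 FC 0.06, adjusted p = 0.726, limma). Tfam, which packages and activates the mitochondrial genome, averaged 7.40 ± 0.820 and 7.70 ± 1.18 (log2 FC -0.05, adjusted p = 0.785, limma). Lrpprc, which stabilizes mitochondrial mRNAs, was lower, at 27.8 ± 1.73 against 34.5 ± 2.83 FPKM (log2 FC -0.30, adjusted p = 0.0495, limma).

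The 3 lowest adjusted p of this list belonged to genes that were higher in nAAC. Rexo2, an exonuclease that clears short mitochondrial RNA, was at 29.9, 36.4, 34.4, 30.7 and 30.7 FPKM in nAAC 1 to 5 and at 16.8, 17.1, 16.7, 26.8 and 19.0 in sham 1 to 5. The groups did not overlap, with sham 4 the nearest (log2 FC 0.74 ± 0.14, SE; adjusted p = 0.0016, limma). Polg, the mitochondrial DNA polymerase, had a log2 FC of 0.43 (adjusted p = 0.0249, limma), and Elac2, which cuts the 3′ ends of tRNA precursors, one of 0.36 (adjusted p = 0.0322, limma). Twnk, the replicative helicase, averaged 5.85 ± 0.823 FPKM in nAAC and 5.77 ± 1.51 in sham (SD, n = 5; log2 FC 0.03, adjusted p = 0.881, limma).

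Of 22 aminoacyl-tRNA synthetases of the mitochondrion, 1 was higher and none was lower, beside 27.1% and 4.6% of all genes, with a median log2 FC of 0.03. It was Gars, the glycine enzyme shared with the cytosol, at 24.8 ± 1.49 FPKM in nAAC and 17.6 ± 1.24 in sham (SD, n = 5; log2 FC 0.47, adjusted p = 0.0039, limma). Of 16 other mitochondrial proteins, none was higher and 2 were lower, beside the same shares of all genes. One of the lower ones was Cs, the citrate synthase (227 ± 20.1 against 323 ± 31.4 FPKM, log2 FC -0.51, adjusted p = 0.0097, limma). The other was Vdac3, a channel of the outer membrane (log2 FC -0.40, adjusted p = 0.0269, limma). The median log2 FC of these 16 was 0.03.

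Within complexes, the mean FPKM of the mitochondrial subunits was 66.3 ± 18.5 times that of the nuclear subunits for complex I in nAAC and 85.8 ± 42.1 times in sham (SD, n = 5). For complex IV the ratio was 58.6 ± 14.4 and 68.9 ± 28.3, and for complex V 24.0 ± 7.56 and 26.0 ± 11.4. The groups overlapped in every one of these ratios. The ratios used the mitochondrial rows alone, without the insert rows that share reads with mRNAs of complexes I, IV and V. mt-Cytb of complex III has no such row, so the ratios cannot be compared between complexes. Sham 4 had the lowest ratio of all mice, at 29.8 for complex I, 32.2 for complex III, 32.7 for complex IV and 12.1 for complex V, and the highest mean of the nuclear subunits in each.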

How the data were processed

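The deposited gene tables, 1 per mouse, hold a coverage, an FPKM and a TPM for each gene. The deposited coverage is a signal, the mean read depth per base, and the deposited FPKM and TPM were normalized by the authors for length and library total. The columns are those that StringTie writes, although no source used here names the program. The submitters' processing notes name the build mm10, and the aligner, the RNA selection and the use of strand are not given in the sources used here. Groups and replicate numbers came from the sample titles. Nothing else tells whether replicates are independent litters, so p-values measure the spread between these mice.

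The coordinates of all 37 mitochondrial rows equal those of GENCODE M21 (GRCm38), from which sequences were read. Rows sharing a gene ID were summed. limma 3.58.1 in R 4.3.3 was fitted to log2(FPKM + 1), with an intensity trend, over the 11867 genes that averaged 1 FPKM or more, with Benjamini-Hochberg adjustment over all of them and a threshold of 0.05. A log2 FC on this scale understates the change of low genes. Single values were compared by two-sided exact permutation tests over 252 splits. The fit was tested on simulated data. Transcripts of the mitochondrial genome, gene lists, named genes (all members, and up to 3 called genes with the lowest adjusted p of each nuclear list, or the lowest where none was called, Tfam, Polrmt, Lrpprc and Twnk in any case, the insert rows, and markers) and tests were chosen with earlier results of these data known. A replicate block, other scalings, TPM, other filters and covariates, and the removal of single mice were tried. Python 3.11.15, pandas 2.3.3, Biopython 1.88 and matplotlib 3.10.9 were used.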

Additional observations from a re-analysis of the deposited data

Results flagged for a closer look

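Among the groups of 5 mice examined for a single value far from the other 4, 2 of 82 stood out by Dixon's criterion. Chance gives about 1 in 20, or 4.1 of the 82, so the 2 found are no more than chance gives. In nAAC 2, mt-Ts1 was at 5313 FPKM and the next mouse at 4301, so that the gap was 0.782 of the range of the group. In sham 2, mt-Tr (arginine) was at 183 FPKM and the next mouse at 117, with a gap of 0.899 of the range. Neither transcript passed the test between the groups, with adjusted p (limma) of 0.780 and 0.550, and the cause of the gaps was not tested.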

How the results depend on the processing

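The number of mitochondrial transcripts lower in nAAC, 9 in the reported fit, was 17 after median-ratio scaling (12.1% of all genes lower), 18 after upper-quartile scaling (11.5%), 14 without the intensity trend (4.77%), 4 without a filter on low values (2.13%), 2 with Xist as a covariate (3.29%) and 3 in the 6 mice with Ddx3y at 0 (4.63%). It was 6 (without sham 2) to 19 (without sham 4) with single mice left out (3.59% to 5.23% of all genes lower), 15 without sham 5, and no transcript was higher in any of these fits. The first 2 scalings move the median of all genes from 0.22 to about 0. Median-ratio scaling moved the median log2 FC to -0.68 for mRNA and -0.76 for tRNA. Over the 36 transcripts the median was -0.71 after that scaling, -0.26 with TPM, -0.22 with Xist and -0.24 in the mice with Ddx3y at 0, against -0.43, and 36, 31, 30 and 26 values were negative. Without single mice the medians were -0.49 to -0.33 for mRNA, -0.95 to -0.72 for rRNA and -0.67 to -0.36 for tRNA. The mitochondrial share of TPM differed by -9.72 to -5.71 percentage points without single mice, and by 0.0964 in the mice with Ddx3y at 0. The tRNA share of mitochondrial TPM differed by -1.38 to -0.70 points. mRNAs whose pool share did not overlap numbered 0 to 1 without single mice, and 2 in the mice with Ddx3y at 0. The share of all genes without overlap is not given for these subsets. Groups of fewer mice separate more readily, so these counts do not show a change in the make-up of the pool.

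Nuclear respiratory subunits were called lower and higher in 7 and 1 cases in the reported fit, in 35 and 0 after median-ratio scaling, 36 and 0 after upper-quartile scaling, 17 and 2 with nuclear genes set to a common sum, 40 lower when the insert was left out of that sum too, 1 and 2 with TPM, 16 and 3 relative to cardiomyocyte markers, 0 higher without a filter, 11 lower without the trend, 2 and 0 with Xist, 0 higher with Ddx3y detection as a covariate, 38 and 0 with Ddx3y at 0, and 3 to 9 and 0 to 3 without single mice. The shares of all genes lower and higher were 4.6% and 27.1% in the reported fit, 12.1% and 13.2% after median-ratio scaling, 11.5% and 13.7% after upper-quartile scaling, 5.06% and 26.2% with the common sum, 7.74% and 13.3% without the insert in it, 2.9% and 41.9% with TPM, 4.42% and 28.3% relative to cardiomyocyte markers, 3.29% and 13.4% with Xist and 4.49% and 20.1% with Ddx3y detection. The share lower was 4.77% without the trend and 4.63% with Ddx3y at 0. Without a filter the share higher was 11.6%. The only sham mice in the fit with Ddx3y at 0 were sham 4 and sham 5. Sham 4 had the highest mean of the nuclear subunits in complexes I, III, IV and V. The part of sham 4 in the subunit count of that fit was not tested. The other 3 nuclear lists together had 4 lower and 5 higher, 24 and 1 after either scaling, 11 and 2 without the insert in the sum, 0 and 13 with TPM, 2 and 8 relative to cardiomyocyte markers, 1 and 2 with Xist, 2 higher with Ddx3y detection, 2 and 0 with Ddx3y at 0, and 1 to 5 and 2 to 12 without single mice. The replicate numbers did not pair the mice (correlations of same-numbered mice from -0.316 to 0.192). With a replicate block, 10 mitochondrial transcripts were lower. The nuclear counts there were 0 higher for the subunits and 1 lower for the other lists. Of all genes, 4.19% were lower and 24.7% higher in that fit.

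The sign turned in these cases, none past the threshold. With TPM, the log2 FC was 0.092 for mt-Ts1, 0.044 for mt-Tr, 0.12 for mt-Nd4l, 0.11 for mt-Tt and 0.11 for Gm10222. With Xist it was 0.073 for mt-Tm, 0.21 for mt-Td, 0.083 for mt-Atp8, 0.20 for mt-Nd4l, 0.40 for mt-Tp and 0.19 for Gm10222. With Ddx3y detection it was 0.16 for mt-Td, 0.032 for mt-Atp8, 0.21 for mt-Nd4l, 0.21 for mt-Tp and 0.20 for Gm10222. In the mice with Ddx3y at 0 it was 0.27 for mt-Tl1, 0.057 for mt-Tm, 0.044 for mt-Nd2, 0.60 for mt-Td, 0.39 for mt-Atp8, 0.019 for mt-Tr, 0.60 for mt-Nd4l, 0.014 for mt-Nd4, 0.28 for mt-Nd5, 0.38 for mt-Tp, 0.31 for Gm28439 and 0.62 for Gm10222. mt-Tv was -0.19 and -0.18 after the median-ratio and upper-quartile scalings, -0.14 without the insert in the sum and -0.13 with Ddx3y at 0. Without single mice the ranges were -0.11 to 0.22 for mt-Tv, -0.16 to 0.13 for mt-Tt, -0.55 to 0.16 for mt-Td, -0.37 to 0.065 for mt-Nd4l, -0.39 to 0.056 for Gm10222, -0.17 to 0.0081 for mt-Tr and -0.17 to 0.072 for mt-Ts1. The causes were not tested. The sum without the insert and both uses of Ddx3y were chosen after seeing the data.

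Depth limits mt-Tf, mt-Td, mt-Tv, mt-Tt and mt-Tk, whose values are low. Read counts were not used here, so counting error is unknown.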
